A study of Mus musculus with 14 samples.

Results

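The 10 genes described here encode transcription factors that T cells induce within minutes of a signal through the antigen receptor: Egr1, Egr2 and Egr3, the nuclear receptors Nr4a1, Nr4a2 and Nr4a3, and the AP-1 genes Fos, Fosb, Jun and Junb. They were taken by the gene symbol of the array platform, out of 19937 genes with a single symbol. Each of the 10 had 1 probe set, and all 10 passed the filter on low signal, which left 14438 genes to test. Signal was measured on 14 arrays, each with RNA from 1 sort of mouse effector CD8+ T cells of the strain C57BL/6J, and is given throughout on the log2 scale.

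The cells came from fetal liver chimeras, in which blood cells grow from transplanted fetal liver, and were moved into congenic recipients a day before infection with Listeria that expresses ovalbumin. They were sorted on day 6. The labels call them OTI, a T cell receptor for an ovalbumin peptide, except in the Id2KOBimKO samples, where the sample source does not repeat that word. Sorting used KLRG1, an inhibitory receptor that marks terminal effector cells. There were 3 arrays of wild-type (WT) KLRG1hi cells and 5 of WT KLRG1lo cells. The knockouts, Id2KO, BimKO and Id2KOBimKO, were all sorted as KLRG1lo and had 2 arrays each. Id2 binds E proteins, a family of transcription factors, and keeps them off DNA. Bim is a death-promoting member of the Bcl-2 family and is encoded by Bcl2l11. The labels do not say how either gene was deleted, or whether replicates came from separate animals, so a p-value here speaks to the spread among these arrays, part of which may be technical.

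Signals from the antigen receptor reach these genes through calcium and NFAT and through the Ras and ERK kinases, which act on serum response factor, its partner factors and CREB at promoters that are already open. Egr proteins are zinc finger factors, and Egr2 and Egr3 are known to restrain T cell activation. Nr4a receptors act without a known natural ligand and are widely used as reporters of recent antigen receptor signalling. Fos and Jun family proteins pair through leucine zippers to form AP-1. The transcripts are short-lived and are also induced by stress and by tissue handling.

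Promoter windows from RefSeq (GRCm38.p6) held 250 bases before and 50 after each start, and 8 of the 10 genes had at least 1, with 12 windows in all; Egr1 and Egr3 had no entry. The windows were searched on both strands for the core TGACG of the cAMP response element (CRE), the full CRE TGACGTCA, the AP-1 site TGANTCA, the EGR site GCGNGGGCG and the CArG box of serum response factor. The CRE core lies inside the full CRE. Nr4a1, Nr4a2 and Nr4a3 each held 4 CRE cores, against 0.231% of all 32851 windows with 4 or more and 20.8% with any. Fos held 2 CRE cores, Fosb and Junb 1 each, and Jun 0. Egr2 had 5 windows, of which the 3 that overlap each held 2 CRE cores and 1 CArG box. A separate Egr2 window, chr10:67537316-67537615, held another CArG box and no CRE core, and 1.63% of all windows held a CArG box. An EGR site occurred once each at Nr4a1, Nr4a2 and Fosb, against 5.55% of all windows. None of the 12 windows held the full CRE or the AP-1 site, which occurred in 1.79% and 7.81% of all windows.

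The following windows are printed for 4 members named below. Nr4a1 and Nr4a3 varied together from array to array. Egr2 and Junb had differences of opposite sign between the WT sorts, but neither passed the test (limma adjusted p = 0.331 and 0.455). Capitals mark the CRE core, written CGTCA where it lies on the other strand, and also the EGR site at Nr4a1 and the CArG box at Egr2. A match is a description of the letters and not a measured binding site.
Nr4a1, chr15:101266596-101266895, plus strand: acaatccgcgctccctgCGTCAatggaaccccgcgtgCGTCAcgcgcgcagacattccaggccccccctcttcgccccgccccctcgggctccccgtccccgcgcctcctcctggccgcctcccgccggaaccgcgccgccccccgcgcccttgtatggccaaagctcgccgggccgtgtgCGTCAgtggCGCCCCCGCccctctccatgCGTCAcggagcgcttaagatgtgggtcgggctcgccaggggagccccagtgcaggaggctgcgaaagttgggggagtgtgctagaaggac
Nr4a3, chr4:48045055-48045354, plus strand: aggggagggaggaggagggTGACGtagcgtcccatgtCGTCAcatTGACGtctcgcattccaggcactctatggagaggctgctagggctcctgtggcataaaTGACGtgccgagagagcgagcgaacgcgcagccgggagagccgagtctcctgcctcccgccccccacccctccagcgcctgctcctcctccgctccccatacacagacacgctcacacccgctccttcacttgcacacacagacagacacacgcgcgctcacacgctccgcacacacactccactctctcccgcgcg
Egr2, chr10:67537619-67537918, plus strand: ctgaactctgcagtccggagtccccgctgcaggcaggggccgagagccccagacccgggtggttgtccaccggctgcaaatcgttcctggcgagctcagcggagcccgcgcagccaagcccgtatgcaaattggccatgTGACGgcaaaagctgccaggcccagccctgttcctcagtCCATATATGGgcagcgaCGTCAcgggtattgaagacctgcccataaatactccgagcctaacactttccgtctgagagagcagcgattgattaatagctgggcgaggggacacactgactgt
Junb, chr8:84978699-84978998, minus strand: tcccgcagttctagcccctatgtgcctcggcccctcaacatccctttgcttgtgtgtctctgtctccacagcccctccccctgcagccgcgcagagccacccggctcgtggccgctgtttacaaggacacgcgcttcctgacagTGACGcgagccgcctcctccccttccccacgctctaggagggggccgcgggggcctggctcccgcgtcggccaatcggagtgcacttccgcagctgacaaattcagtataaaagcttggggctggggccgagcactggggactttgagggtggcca

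The labels were checked with the deleted and the sorted genes. Klrg1 differed by 4.76 between the WT sorts (limma, adjusted p = 7.3e-08). Id2 fell by 1.13 in Id2KO against WT (limma, adjusted p = 0.0162). Its signal on the Id2KO arrays was still 9.73 and 9.88, which is 4.47 to 4.81 above the unnamed median. In Id2KOBimKO, Id2 differed by -1.19 against WT (limma, adjusted p = 0.0182) and by -1.10 against BimKO, which did not pass (adjusted p = 0.587). Bcl2l11 differed by -0.09 between the arrays labelled BimKO and WT (limma, adjusted p = 0.882), and no source used here says whether its probe set lies in the deleted part. The arrays labelled Id2KO also stood apart in sex-linked genes: Xist lay at 4.47 to 4.99 on them and at 8.37 to 10.36 on the other 12, and the Y-linked Eif2s3y at 7.39 to 8.20 against 2.92 to 3.66. Genotype and the sex of the donor cells therefore cannot be told apart for Id2KO against WT. The same limit holds for the mean Id2 effect and the interaction of Id2 and Bim below, which include that comparison. All 8 CD8 T cell markers lay above the median of unnamed probe sets on every array, with means of 10.89 to 11.59. The 9 B cell markers measured had means of 4.79 to 5.25 in WT KLRG1hi and 5.12 to 6.60 in WT KLRG1lo. Among them Cd74 lay above 7 on 5 arrays, which were WT KLRG1lo replicates 3 to 5, BimKO replicate 2 and Id2KOBimKO replicate 2. The 9 monocyte and macrophage markers measured had means of 5.78 to 6.19 in WT KLRG1hi and 6.01 to 6.71 in WT KLRG1lo, and the 10 neutrophil markers 4.74 to 5.05 and 4.76 to 5.79. The part of such cells in the values below was not tested, but values without those 5 arrays are given where they bear on a result.

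Several members lay near background. The median of the unnamed probe sets, which serves as a reference for background, was 5.01 to 5.39 over the 14 arrays. Jun fell under it on 5 of 14 arrays, Fosb on 3, Nr4a2 on 2 and Fos on 1. Egr1, Egr2, Egr3, Nr4a1, Nr4a3 and Junb lay above it on all 14. The standard deviation over all arrays was largest for Egr1, at 0.37, and smallest for Nr4a3, at 0.17, with a median of 0.25 over all genes tested. In the plot of signal by group, the points of Fos, Fosb and Jun reach into the grey band of the unnamed medians.

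**Figure D1:**
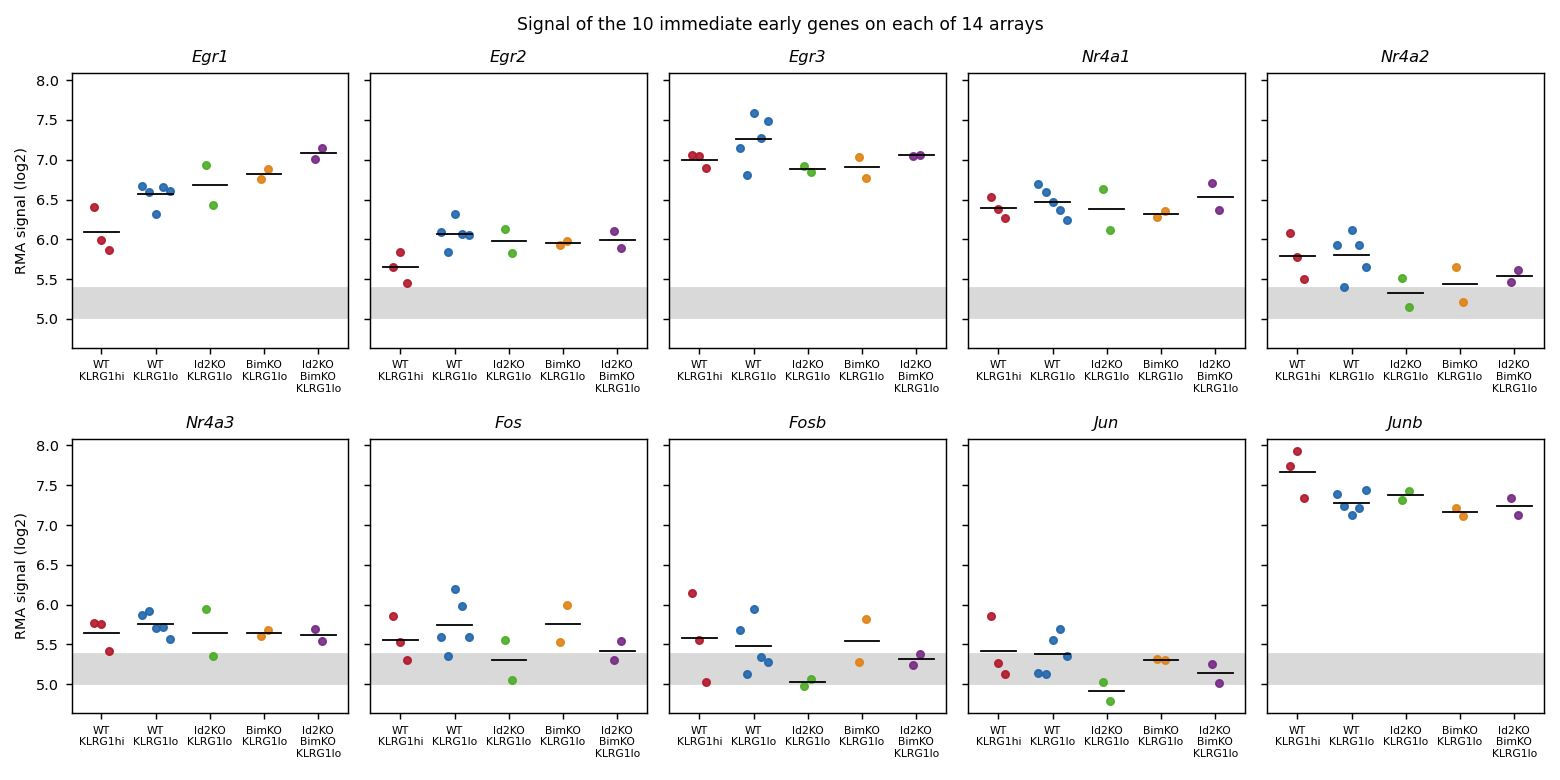
Log2 RMA signal of each of the 10 genes on each of 14 arrays, by group. Points are arrays, bars are group means and the grey band is the range of the median of unnamed probe sets, 5.01 to 5.39. Egr1 and Egr2 have their lowest group mean, and Junb its highest, in WT KLRG1hi.

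The comparison of WT KLRG1hi with WT KLRG1lo cells asks whether the sorted subsets, terminal effectors and cells with more memory potential, differ in these genes. None of the 10 members passed the test (limma, all genes tested, Benjamini-Hochberg adjusted p under 0.05), against a background of 0.942% of genes called. The smallest adjusted p among the members was 0.287. At an unadjusted p under 0.05 there were 3 members, Egr1, Egr2 and Junb, against 7.2% of all genes. The arrays of the sorts did not separate completely for any member, while they did for 4.18% of genes. The 95% intervals of the members reached at most a 1.77-fold difference in either direction. In bulk RNA, fewer cells that express a gene and less of its RNA per cell cannot be told apart, here and in the comparisons that follow.

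Egr1, a zinc finger factor induced through ERK, lay at 6.41, 5.99 and 5.87 on the WT KLRG1hi arrays and at 6.67, 6.60, 6.32, 6.66 and 6.61 on the WT KLRG1lo arrays. The KLRG1hi arrays were the lower ones apart from replicate 1, which lay above KLRG1lo replicate 3. The means were 6.09 ± 0.29 (SD, n = 3) and 6.57 ± 0.14 (SD, n = 5). The difference was -0.48 (SE 0.16, 95% interval -0.82 to -0.15) with an unadjusted p of 0.00745 and an adjusted p of 0.287 (limma). It was -0.55 without the 5 arrays with Cd74 above 7, and over 25 alternative settings it lay between -0.65 and -0.37 with no adjusted p under 0.0693.

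Egr2, which restrains receptor-driven activation and cytokine genes, lay at 5.65, 5.84 and 5.45 in WT KLRG1hi and at 6.09, 5.84, 6.31, 6.07 and 6.06 in WT KLRG1lo. The groups met at 5.84, the highest KLRG1hi and the lowest KLRG1lo array. The means were 5.65 ± 0.20 (SD, n = 3) and 6.07 ± 0.17 (SD, n = 5), and the difference was -0.42 (SE 0.15, limma adjusted p = 0.331). Without the 5 arrays with Cd74 above 7 it was -0.31. Egr3, a close relative of Egr2, lay at 7.05, 7.05 and 6.90 against 7.15, 6.80, 7.59, 7.27 and 7.49. Its difference was -0.26 (adjusted p = 0.887), and the KLRG1lo arrays above all KLRG1hi arrays included replicates 3 to 5, which had Cd74 at 8.46, 8.73 and 7.98. Without the 5 Cd74 arrays the difference in Egr3 was 0.02.

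Junb, an AP-1 partner that also limits growth in some cells, went the other way. It lay at 7.74, 7.93 and 7.34 in WT KLRG1hi and at 7.39, 7.23, 7.13, 7.22 and 7.45 in WT KLRG1lo. KLRG1hi replicates 1 and 2 lay above all KLRG1lo arrays, and replicate 3 lay among them. The means were 7.67 ± 0.30 (SD, n = 3) and 7.28 ± 0.13 (SD, n = 5), with a difference of 0.39 (SE 0.15, 95% interval 0.07 to 0.70, limma adjusted p = 0.455).

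The other AP-1 members and the nuclear receptors lay close together in the WT sorts, with differences of -0.18 for Fos, 0.10 for Fosb, 0.04 for Jun, -0.07 for Nr4a1, -0.02 for Nr4a2 and -0.11 for Nr4a3. The interval of Nr4a1, the member most used as a reporter of recent receptor signalling, was -0.40 to 0.25. That of Fos, the founding partner of Jun in AP-1, was -0.61 to 0.24, and without the 5 Cd74 arrays its difference was 0.09. The intervals of these genes do not show that the sorts were alike. Each reached, in 1 direction, at least as far from 0 as the -0.40 of Nr4a1. Those of Fos and Fosb alone left room for a difference of the size seen in Egr1. In the plot of differences the intervals of Egr1, Egr2 and Junb lie clear of 0 in the KLRG1 comparison.

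**Figure D2:**
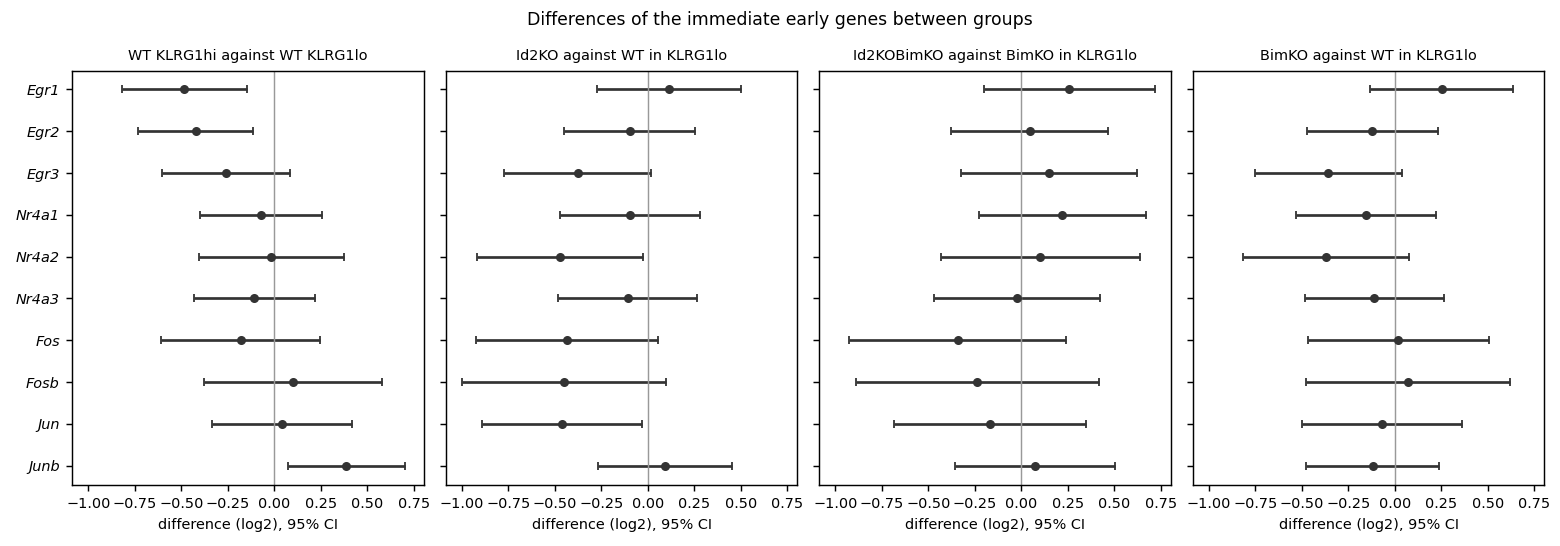
Differences of the 10 genes in 4 comparisons (log2), with 95% intervals from the limma fit, not adjusted for the number of genes. In the first panel, negative values are lower in WT KLRG1hi, and Egr1 (-0.48), Egr2 (-0.42) and Junb (0.39) stand away from 0.

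Loss of Id2 was compared with WT in KLRG1lo cells and, on the Bim-deficient background, Id2KOBimKO with BimKO. In Id2KO against WT none of the 10 members passed (background 0.111% of genes called), and the smallest adjusted p was 0.275. At an unadjusted p under 0.05 there were 2 members, Nr4a2 and Jun, against 18.1% of all genes. The arrays separated for Fosb and Jun, against 28.5% of genes. The share of members was thus near that of all genes on both counts. Their median difference was -0.24, beside 0.03 over all genes tested.

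Nr4a2, the nuclear receptor best known from dopamine neurons, lay at 5.52 and 5.15 on the Id2KO arrays and at 5.92, 5.40, 6.12, 5.93 and 5.65 in WT KLRG1lo. The difference was -0.47 (SE 0.21, limma adjusted p = 0.275). Jun, the main partner of Fos, lay at 5.03 and 4.79 in Id2KO against 5.15, 5.13, 5.56, 5.69 and 5.36, so that both Id2KO arrays were the lowest. Its difference was -0.46 (SE 0.20, adjusted p = 0.275), and both Id2KO values lay under the unnamed median of their arrays. Fosb, a Fos relative, lay at 4.98 and 5.07 in Id2KO and at 5.68, 5.13, 5.95, 5.35 and 5.28 in WT KLRG1lo, also without overlap and also under the unnamed median on the Id2KO arrays. Differences of -0.45 for Fosb, -0.44 for Fos and -0.38 for Egr3 had adjusted p-values of 0.294, 0.282 and 0.275 (limma).

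The spread of an array, the interquartile range of its log2 values, moved with these differences. It was 2.83 and 2.87 on the Id2KO arrays and 2.68, 2.82, 2.46, 2.48 and 2.57 on the WT KLRG1lo arrays. Both Id2KO arrays had a larger spread than every WT KLRG1lo array, so genotype and spread cannot be told apart in these values. With the spread as a covariate the differences became -0.08 for Nr4a2, -0.09 for Jun, -0.02 for Fosb, -0.02 for Fos and -0.10 for Egr3. Without the 5 Cd74 arrays they were -0.33, -0.23, -0.38, -0.16 and -0.10 in the same order. The remaining members had differences of 0.11 (Egr1), -0.10 (Egr2), -0.10 (Nr4a1), -0.11 (Nr4a3) and 0.09 (Junb).

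Between Id2KOBimKO and BimKO cells none of the 10 members passed, on a background of 0% (none of 14438 genes, with 1.81% at an unadjusted p under 0.05 and none of the members). The arrays separated for 4 members, Egr1, Egr3, Nr4a1 and Jun, against 29.7% of genes. Egr1 lay at 7.01 and 7.15 in Id2KOBimKO against 6.76 and 6.88 in BimKO, a difference of 0.26 (95% interval -0.20 to 0.72, limma adjusted p = 1). Jun lay at 5.26 and 5.02 against 5.31 and 5.30. Fos lay at 5.30 and 5.54 against 5.53 and 6.00, with a difference of -0.34 (95% interval -0.92 to 0.24).

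In the mean Id2 effect over both Bim backgrounds none of the 10 members passed (background 0.18% of genes called), and Fos was the 1 member at an unadjusted p under 0.05, against 7.11% of genes. Its mean difference was -0.39 (SE 0.18, unadjusted p = 0.0455, limma adjusted p = 0.62). It was -0.14 with the array spread as a covariate (limma, unadjusted p = 0.35) and -0.20 without the 5 Cd74 arrays (unadjusted p = 0.391). In the interaction of Id2 and Bim none of the 10 passed either (background 0.0277%), and 4.27% of all genes and none of the members had an unadjusted p under 0.05. Nr4a2 and Egr3 had interactions of 0.58 (95% interval -0.12 to 1.27) and 0.53 (95% interval -0.09 to 1.14), each with an adjusted p of 0.726.

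BimKO and Id2KOBimKO cells were each set against the same WT KLRG1lo arrays that served for Id2KO. In BimKO against WT none of the 10 members passed on a background of 0%, and none had an unadjusted p under 0.05, against 6.91% of genes. In Id2KOBimKO against WT none passed on a background of 0.0623%, and Egr1 alone of the members had an unadjusted p under 0.05, against 3.95% of genes. The arrays separated for Egr1 alone in both comparisons, against 12.6% of genes in each. Egr1 differed by 0.25 in BimKO (95% interval -0.13 to 0.64) and by 0.51 in Id2KOBimKO (SE 0.18, 95% interval 0.12 to 0.89, unadjusted p = 0.0125, limma adjusted p = 0.785).

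Over the 5 groups Egr1 was lowest in the WT sorts, with the means of 6.09 and 6.57 given above for KLRG1hi and KLRG1lo. Id2KO cells followed with 6.69 ± 0.36, BimKO cells with 6.82 ± 0.09 and Id2KOBimKO cells with 7.08 ± 0.09 (SD over 2 arrays each). No neighbouring pair in that order that was tested differed with an adjusted p under 0.05. Egr2 in contrast lay between 5.95 and 6.07 in all 4 KLRG1lo groups. Nr4a3 had the narrowest range of group means, from 5.62 to 5.76, and Nr4a1 had means from 6.32 to 6.54. Junb had group means of 7.16 to 7.38 in the KLRG1lo groups, all under the 7.67 of WT KLRG1hi.

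The members were also compared from array to array. Of 45 pairs, 5 passed on Pearson's r (two-sided permutation test, adjusted p under 0.05 over the pairs), and all 5 were positive. The median r over the pairs was 0.24. Nr4a1 and Nr4a3 had the highest, with r = 0.825 and rho = 0.815 over 14 arrays (permutation p = 0.00031 and 0.00067, adjusted p = 0.014 and 0.015). Without the 2 arrays farthest from the median of Nr4a1 r was 0.917, and on values centred on group means it was 0.903. The arrays were split into 2 sets at the widest gap between the medians of their unnamed probe sets, from 5.07 to 5.16. Such a cut always gives 2 sets, and the gap from 5.27 to 5.34 was nearly as wide. The set of 6 arrays held replicates 1 and 2 of both WT sorts and replicate 1 of Id2KO and of Id2KOBimKO. Both BimKO arrays and all 5 arrays with Cd74 above 7 lay in the set of 8. For Nr4a1 and Nr4a3, r was 0.202 in the set of 6 and 0.813 in the set of 8. These values within the sets were not tested, and 6 arrays are too few to show whether the relation held in the smaller set.

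The other pairs that passed were Fos and Jun (r = 0.754, rho = 0.684), Fos and Fosb (r = 0.741, rho = 0.692), Nr4a2 and Jun (r = 0.735, rho = 0.697) and Egr3 and Nr4a2 (r = 0.715, rho = 0.824). Each had a permutation adjusted p of 0.034 on r. On rho the adjusted p was 0.078 for the first 3 pairs and 0.015 for Egr3 and Nr4a2. The unadjusted permutation p-values on r were 0.0018, 0.0028, 0.003 and 0.0038, and those on rho 0.0087, 0.0078, 0.0069 and 0.00059, in the same order. Without the 2 arrays farthest from the median of the first gene r was 0.648, 0.646, 0.612 and 0.82, and within the sets of 6 and 8 arrays it lay between 0.70 and 0.88 for each pair.

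**Figure D3:**
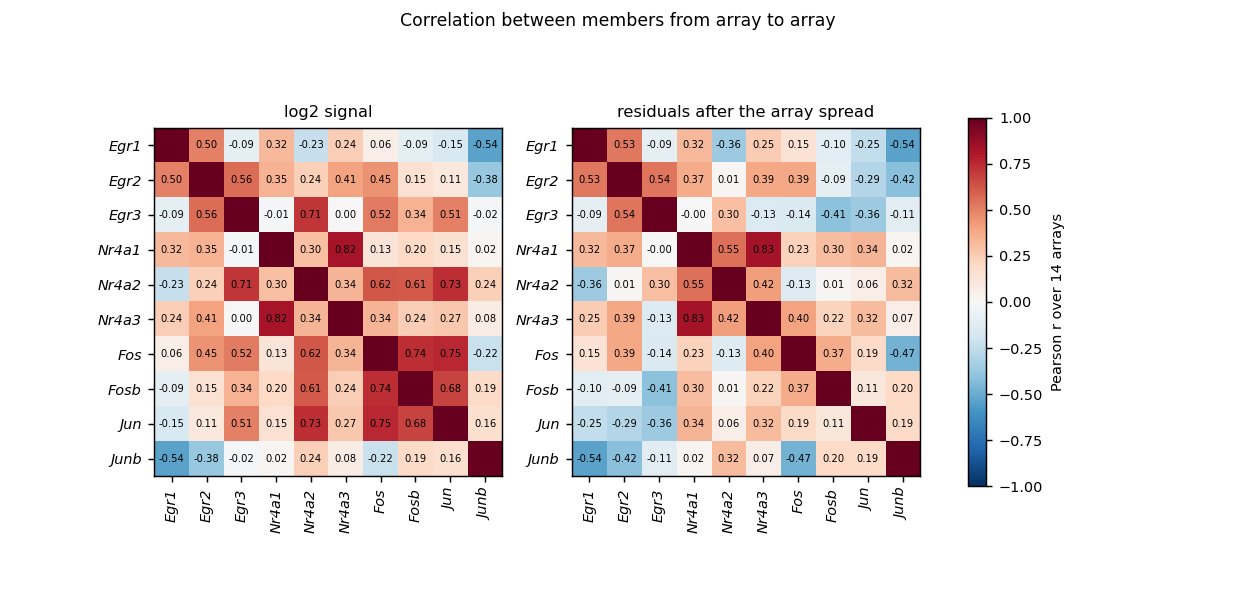
Pearson's r between the 10 genes over 14 arrays, on log2 signal (left) and on residuals after the array spread (right). In the right panel Nr4a1 and Nr4a3 lie at 0.83, Fos and Jun at 0.19 after 0.75 in the left panel, and Egr3 turns negative with Jun, at -0.36 after 0.51.

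Signal was also set against the array spread. In a permutation test over 14 arrays, adjusted over the 10 members, Jun (r = -0.869, rho = -0.837, permutation p = 5e-05 and 0.00031, adjusted p = 5e-04 and 0.0016), Nr4a2 (r = -0.825, rho = -0.842, p = 0.00042 and 0.00032, adjusted p = 0.0021 and 0.0016) and Fos (r = -0.802, rho = -0.719, p = 0.00066 and 0.005, adjusted p = 0.0022 and 0.01) fell as the spread rose. Fosb (r = -0.738, rho = -0.749, permutation p = 0.0027 and 0.0026) and Egr3 (r = -0.724, rho = -0.763, permutation p = 0.0033 and 0.0021) did so too, with adjusted p-values of 0.0065 on r and 0.0066 on rho for each. With the 2 arrays of most extreme spread left out, r was -0.795 for Jun, -0.70 for Nr4a2, -0.723 for Fos, -0.509 for Fosb and -0.755 for Egr3. Within the sets of 6 and 8 arrays it was negative for all 5, from -0.98 to -0.555.

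Such relations were common on these arrays: 2.49% of all genes tested had a lower r with the spread than Jun, 6.08% than Nr4a2, 8.24% than Fos, 14.9% than Fosb and 16.3% than Egr3. The other 5 members did not pass, with r between -0.284 and 0.031 and permutation adjusted p-values of 0.55 to 0.96. Their r had opposite signs in the sets of 6 and 8 arrays, where it was not tested. In that order, r was 0.526 and -0.31 for Egr1, 0.706 and -0.84 for Egr2, 0.383 and -0.735 for Nr4a1, 0.456 and -0.867 for Nr4a3 and -0.702 and 0.458 for Junb. After the spread was taken out, r was 0.191 for Fos and Jun, 0.371 for Fos and Fosb, 0.064 for Nr4a2 and Jun and 0.302 for Egr3 and Nr4a2. Egr3 had negative residual r with Fos (-0.144), Fosb (-0.408) and Jun (-0.361). That of Nr4a1 and Nr4a3 was 0.834 over all arrays. The spread was also taken out within each set, an alternative chosen after seeing the data. The r of Nr4a1 and Nr4a3 was then 0.034 in the set of 6. It was 0.52 in the set of 8, where both genes had a negative r with the spread. Done in the same way, Fos and Fosb had 0.852 in the set of 8 and -0.329 in the set of 6.

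**Figure D4:**
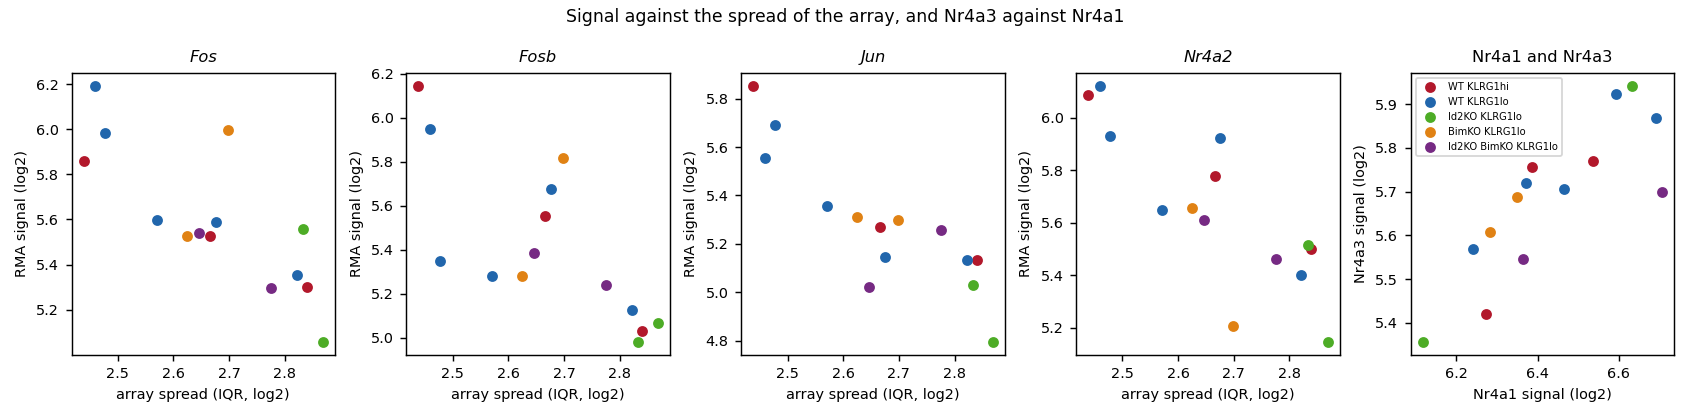
Log2 signal of Fos, Fosb, Jun and Nr4a2 against the interquartile range of log2 values on the same array, and Nr4a3 against Nr4a1; points are the 14 arrays, coloured by group. The first 4 panels slope downward (r of -0.869 to -0.738) and the last slopes upward (r = 0.825).

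The genes most like each member were named by the highest r over the 14 arrays among the genes tested, as a description. Genes with predicted or clone names, and olfactory and vomeronasal receptor genes, were left out of this search. For Egr1 they were Tox (r = 0.926, and 0.652 centred on group means), Parp3 (0.891) and Dusp6 (0.88), the last a phosphatase that switches off ERK. For Egr2 they were Cdh1 (0.826), Taf6l (0.825) and Slc22a20 (0.804), and for Egr3 Hoxb3 (0.926), Krtap9-3 (0.918) and Fgf23 (0.911). Nr4a1 was most like Nr4a3 (0.825), Snrpc (0.81) and Lsm5 (0.776), and Nr4a3 was most like Mrpl14 (0.835), Nr4a1 (0.825) and Ndufa12 (0.811).

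Nr4a2 was most like Sox1ot (0.975), Btbd17 (0.974) and Mcc (0.974). Among the AP-1 genes, Fos was most like Tbc1d8 (0.94), Sod1 (0.925) and Carmil1 (0.916), Fosb like Cdh16 (0.956), Nkx1-2 (0.886) and Lhx8 (0.883), and Jun like Chtf18 (0.952), Insm2 (0.95) and Bnip3 (0.945). Junb was most like Nfic (0.898), Snrpd1 (0.87) and Cmtm4 (0.848). The arrays share their spread and background, so a high r does not need a relation particular to the gene.

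Genes around the members were counted in lists. Between the WT sorts, 1 of 12 other AP-1 and bZIP genes passed, lower in KLRG1hi, and 1 of 27 other receptor-induced early genes, also lower, beside 0.263% of all genes. None passed among 16 MAP kinase phosphatases and feedback genes, the 19 tested of 26 listed upstream regulators and the 13 tested of 15 listed heat shock and stress genes. Medians were -0.06, -0.10, -0.08, -0.05 and 0.01 for the 5 lists in that order and -0.09 for the 10 members, beside 0.00 over all genes.

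The early gene that passed was Myc, a driver of growth and metabolism in dividing T cells. It lay at 5.83, 6.44 and 6.31 in WT KLRG1hi and at 7.73, 8.16, 7.42, 7.02 and 7.22 in WT KLRG1lo, with no overlap. It fell by 1.32 (SE 0.22, 2.50-fold, limma adjusted p = 0.0056) in KLRG1hi, and passed under all 25 alternatives, with values of -1.75 to -1.14. On the knockout arrays, all KLRG1lo, Myc lay between 7.85 and 8.43.

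The bZIP gene that passed was Bach2, a repressor that shares DNA sites with AP-1 and favours memory. It lay at 6.42, 6.87 and 6.97 in WT KLRG1hi and at 7.36, 7.47, 7.62, 7.42 and 7.25 in WT KLRG1lo, again with no overlap. It fell by 0.67 (SE 0.15, limma adjusted p = 0.0467), and passed in 8 of 25 alternatives, with values of -0.78 to -0.51. It no longer passed without any single WT array other than KLRG1hi replicate 3, or without any single Id2KO or Id2KOBimKO array (adjusted p of 0.0653 to 0.17). Without the 5 Cd74 arrays its difference was -0.67 with an adjusted p of 0.662, and with array sets as a block -0.64 with an adjusted p of 0.078.

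Feedback genes of the ERK pathway did not pass between the WT sorts. Dusp6 lay at 7.05, 6.23 and 6.24 in WT KLRG1hi and at 7.32, 7.50, 6.87, 7.08 and 7.23 in WT KLRG1lo. Its difference was -0.69 (SE 0.19, limma adjusted p = 0.13). With the array sets as a block it was -0.78, with a limma adjusted p of 0.0418. It did not pass with the array spread as a covariate, quantile normalization or the replicate block (limma adjusted p of 0.0588, 0.145 and 0.295). Dgka, a kinase that removes diacylglycerol and so dampens Ras, differed by -0.62 (SE 0.16, adjusted p = 0.102).

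**Figure D5:**
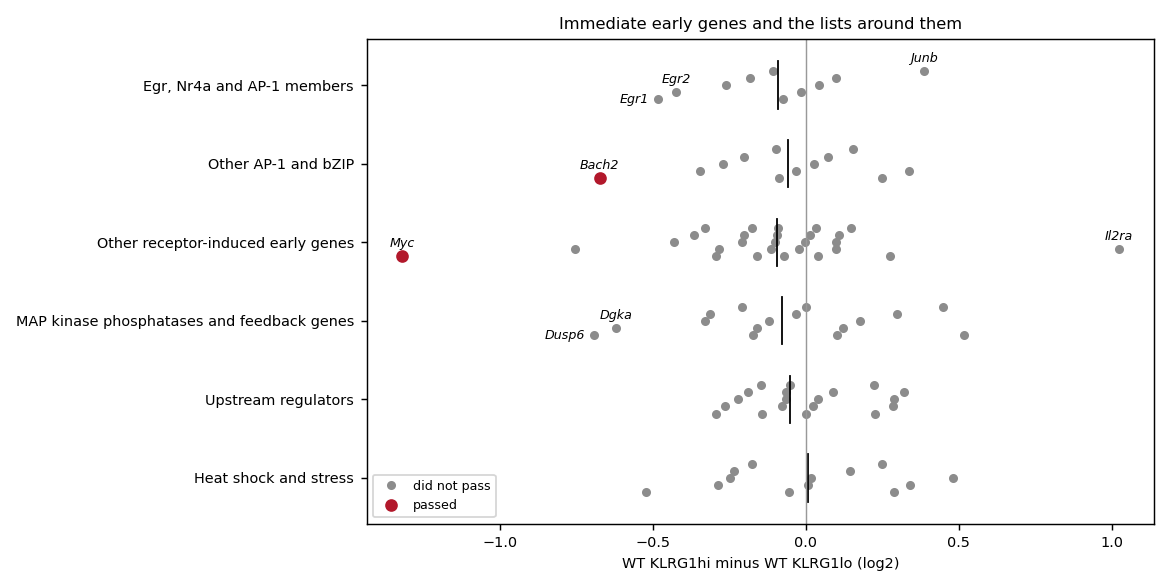
Differences between WT KLRG1hi and WT KLRG1lo (log2) for the 10 members and the genes of 5 lists; each point is a gene, vertical bars are list medians, and red points passed. Myc (-1.32) and Bach2 (-0.67) are the genes that passed.

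In Id2KO against WT, Id2KOBimKO against BimKO and the mean Id2 effect none of the genes of the 5 lists passed (limma), beside 0.111%, 0% and 0.18% of all genes. Dgka had a mean Id2 effect of 0.59 (adjusted p = 0.194), Maf, a bZIP factor of cytokine genes, -0.48 (adjusted p = 0.529), and Jund, a Jun relative, 0.46 (adjusted p = 0.548). Zap70, the kinase next to the antigen receptor, had 0.46 (adjusted p = 0.62), and Dusp1, an early phosphatase gene, -0.51 (adjusted p = 0.62). Of the 19 upstream regulators 18 had a positive mean Id2 effect, with a median of 0.15 beside 0.02 over all genes, of which 52.6% were positive, but none passed. In Id2KO alone the 13 heat shock and stress genes had a median of 0.37, with Hspa8, a constitutive chaperone, at 0.63 (adjusted p = 0.275). These list medians were taken without the array spread as a covariate. WT KLRG1lo replicates 1 and 2 had spreads of 2.68 and 2.82, with Zap70 at 9.17 and 9.28 and Hspa8 at 12.16 and 12.34. Replicates 3 to 5 had spreads of 2.46 to 2.57, with Zap70 at 8.35 to 8.92 and Hspa8 at 11.48 to 11.51. The Id2KO arrays had spreads of 2.83 and 2.87. The part of the spread in these medians was not tested. In the interaction of Id2 and Bim, Il2ra, the high-affinity interleukin receptor chain, had -1.79 (95% interval -3.33 to -0.25, adjusted p = 0.726). The 2 BimKO arrays lay far apart for Il2ra, at 6.06 and 8.82, the higher being the Cd74 array. Without it the Il2ra interaction was -0.41 (limma adjusted p = 0.988), and without the other BimKO array it was -3.17 (adjusted p = 0.0151).

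BimKO and Id2KOBimKO against WT likewise had none of the list genes past the threshold. Myc differed by 0.73 in BimKO (adjusted p = 0.657) and by 0.55 in Id2KOBimKO (adjusted p = 0.785), and Egr4, the remaining Egr gene, by -0.48 in BimKO (adjusted p = 0.657). The 19 upstream regulators had a median difference of 0.17 in Id2KOBimKO against WT, all with a positive sign, beside a median of -0.0016 and 49.8% positive over all genes, and none passed the threshold (limma). In BimKO against WT their median was 0.12 with 16 positive, beside -0.02 and 47.3% over all genes. In Id2KO against WT it was 0.21 with 18 positive, beside 0.03 and 52.2%. These comparisons share the same WT KLRG1lo arrays. These medians too were taken without the array spread as a covariate.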

How the data were processed

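RNA of 14 sorted samples was amplified, labelled with biotin and hybridised to 1 array each, per the labels' protocols. The authors deposited RMA signal, an intensity whose values show a linear scale; RMA and mm9 are named in the submitters' processing notes. It was turned into log2 without an offset, and no further normalization was done. The scale against scanner values was not analysed here. Of 34760 probe sets, 21640 had a single gene name, 1321 several and 11799 none; names were updated by Entrez number in 21553. Of several probe sets, the brightest on average stood for its gene. Genes above the 40th percentile of an array on at least 2 arrays were tested.

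A group-means model was fitted to all 14 arrays with limma 3.58.1 (R 4.3.3, package data.table at 1.17.8; 9 residual and 7.99 prior degrees of freedom), two-sided, with Benjamini-Hochberg adjustment over 14438 genes and a threshold of 0.05. The script was tested on simulated data, in which 200 genes were changed by a known size. A log2 change of 0.5 passed in 0% of them for WT KLRG1hi against WT KLRG1lo and in 0.5% for Id2KO against WT. A change of 1 passed in 81% and 74.5%. In this simulation, changes of about the largest size seen in the members thus seldom passed. Genes and arrays were drawn independently there, so the shares need not hold for the real arrays. Correlations used 100000 permutations. Precision is limited by the few arrays in a group. Alternatives were quantile normalization, an offset of 16, no filter, the 60th percentile as the filter, a trended robust fit, a replicate block, a fit of the compared groups alone, probe sets averaged, the array spread as a covariate, the array sets as a block, and each array left out. The omission of 5 arrays by Cd74, and correlations within array sets, were added after seeing the data. The members, lists and tests were chosen with earlier results of these data known. Named genes were all members, Id2, Bcl2l11 and Klrg1, up to 4 genes of each list that passed, otherwise the 2 with the smallest unadjusted p. The 3 genes most correlated with each member were also named, after the exclusions by name given above.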

Additional observations from a re-analysis of the deposited data

Results flagged for a closer look

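Egr1 on WT KLRG1lo replicate 3 lay at 6.32, apart from the other WT KLRG1lo arrays at 6.60 to 6.67, a gap of 0.789 of the group's range. It was the only 1 of 47 genes looked at in that group to stand apart this far, among them the members and the named list genes, and chance alone marks about 1 in 20 groups. The same array had Cd74 at 8.46.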

How the results depend on the processing

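No member was called in any of the 7 comparisons under the 25 alternatives, among 1708 values of a member in a comparison, of which 93 changed sign without being called. With the filter at the 60th percentile 4 members were tested and the other 6 (Egr2, Nr4a2, Nr4a3, Fos, Fosb and Jun) were not. Deviations of same-numbered arrays from their group means correlated at -0.524 to 0.41 over 18 distinct pairs, with 8 over 0.1. Arrays with different numbers were not compared, so these values do not show whether replicate numbers pair the samples. With the replicate block 0 members were called in each comparison, Bach2 had an adjusted p of 0.125, and genes called between the WT sorts went from 136 to 42. They were 226 with quantile normalization, 376 with the array spread as a covariate, 78 in a fit of the WT sorts alone and 33 without the 5 Cd74 arrays. Leaving out each array in turn gave 0 members called throughout and 45 (without WT KLRG1hi replicate 2) to 179 (without WT KLRG1hi replicate 1) genes between the WT sorts. For the other comparisons it gave 1 (without either Id2KO array) to 39 (without WT KLRG1lo replicate 2) genes in Id2KO against WT, in place of 16. Id2KOBimKO against WT had 0 (without either of its own arrays or WT KLRG1lo replicate 1, 4 or 5) to 15 (without WT KLRG1hi replicate 3), in place of 9, and the mean Id2 effect 8 (without Id2KO replicate 2) to 36, in place of 26. The interaction had 0 (without Id2KO replicate 1) to 6 (without BimKO replicate 1), in place of 4. Without BimKO replicate 1, BimKO against WT went from 0 to 8 and Id2KOBimKO against BimKO from 0 to 3. Without the 5 Cd74 arrays the counts were 4, 0, 3 and 1 for the first 4 of these. Id2 in Id2KO against WT lost its call without either Id2KO array, at -1.20 and -1.06, with the replicate block, at -1.18, and without the 5 Cd74 arrays, at -1.34. Low signal limits Jun, Fosb, Fos and Nr4a2, which reach the unnamed median.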
